A study of Homo sapiens with 6 samples.

Results

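The microRNA family of miR-130a, miR-130b, miR-301a and miR-454 was followed in K562 cells after over-expression of the transcription factor RUNX1. K562 is a human erythroleukemia cell line that can be driven towards the erythroid or the megakaryocytic lineage. Small RNA was sequenced from cells carrying the empty lentiviral vector SIEW, which expresses GFP only, and from cells carrying SIEW with human RUNX1 in addition to GFP. Each condition had 3 samples, from separate transductions, collected after 10 days of culture. All samples come from a single cell line, so the spread between them is that of transductions and libraries. Whether GFP-positive K562 cells were sorted is not given in the sources used here, and the RUNX1 transcript itself cannot be checked in small RNA libraries. The family was taken by name alone, as 7 entries out of the 28846 small RNAs listed for every sample. These are both arms of miR-130a, miR-130b and miR-454 and the 3p arm of miR-301a.

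A microRNA is cut from a hairpin in its precursor, and each hairpin can give a 5p and a 3p arm. Usually one arm is loaded into the silencing complex and the other, the passenger, is degraded. The loaded arm finds its target mRNAs mainly through the seed, bases 2 to 8 from its 5′ end, so that microRNAs with the same seed share many predicted targets. In this family the 3p arms carry the common seed. miR-130a is known from studies of megakaryocytes, where it falls during differentiation.

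The mature sequences show what the members share. They were taken from RefSeq on GRCh38.p14, which held 6 of the 7 members, all but hsa-miR-130a-3p. They are printed 5′ to 3′ with the seed in capitals, first the 3p arms and then the 5p arms. hsa-miR-301b-3p, which is not among the 7 entries, is shown because it has the same seed. The count files name it hsa-miR-301b, the older name of this arm.

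hsa-miR-130b-3p: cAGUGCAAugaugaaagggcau

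hsa-miR-301a-3p: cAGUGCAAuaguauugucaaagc

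hsa-miR-301b-3p: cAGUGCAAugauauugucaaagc

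hsa-miR-454-3p: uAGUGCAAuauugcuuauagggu

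hsa-miR-130a-5p: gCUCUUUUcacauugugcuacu

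hsa-miR-130b-5p: aCUCUUUCccuguugcacuac

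hsa-miR-454-5p: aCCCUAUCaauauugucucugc

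The 4 3p arms shown have AGUGCAA at bases 2 to 8, and 6 of the 2370 mature human microRNA names in RefSeq do. That set lacks hsa-miR-130a-3p, which is therefore not counted. The other 2 of these 6, hsa-miR-4295 and hsa-miR-3666, had no read in any sample. The 5p arms carry other seeds. hsa-miR-130b-5p holds UUGCACU, the reverse complement of the family seed, at bases 13 to 19, as does hsa-miR-301a-5p, while hsa-miR-130a-5p and hsa-miR-454-5p do not. Counted from the 5′ end, hsa-miR-301a-3p and hsa-miR-301b-3p differ at 2 of 23 positions (A10G and G11A, with the base of hsa-miR-301a-3p first). Reads that cover these positions tell the arms apart, but how reads with several matches were counted is not given in the sources used here. hsa-miR-130b-3p and hsa-miR-454-3p differ from each other and from the miR-301 arms at 9 to 12 positions.

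The hairpins lie in 3 places. MIR301A and MIR454 are on chromosome 17 of GRCh38, minus strand, at chr17:59151136-59151221 and chr17:59137758-59137872, with 13263 bases between them, and both sit in introns of SKA2, a protein-coding gene of the spindle and kinetochore complex, on its strand. MIR301B, at chr22:21652981-21653058, and MIR130B, at chr22:21653304-21653385, are on the plus strand of chromosome 22 with 245 bases between them. MIR130B lies in an exon and MIR301B in an intron of the processed transcript AP000553.1, which runs on the same strand. MIR130A, at chr11:57641198-57641286, lies in an intron of AP000662.1. These positions are from GENCODE 29, while the submitters' processing notes name hg19, and the entries were matched by name only. The precursors of the members that changed, with both mature arms in capitals, are as follows.

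MIR301A: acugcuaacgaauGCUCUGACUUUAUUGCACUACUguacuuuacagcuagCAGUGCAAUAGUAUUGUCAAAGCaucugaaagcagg

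MIR454: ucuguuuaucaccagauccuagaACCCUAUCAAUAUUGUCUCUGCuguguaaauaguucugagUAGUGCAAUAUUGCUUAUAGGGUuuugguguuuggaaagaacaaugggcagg

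MIR130B: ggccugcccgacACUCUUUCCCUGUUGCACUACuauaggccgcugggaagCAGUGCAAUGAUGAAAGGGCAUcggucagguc

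Total counts ran from 1618248, in control replicate 1, to 15245007, in RUNX1 replicate 1, so that low entries are least certain in the first of these. RUNX1 replicate 3 stood apart from the other RUNX1 samples. Its counts differed from theirs by a chi-square per degree of freedom of 568 and 364, against 69.3 between RUNX1 replicates 1 and 2 and 10.4 to 26.1 among the control samples. This measure grows with the number of counts, and every control sample held fewer counts than any RUNX1 sample. The control and RUNX1 values are therefore not compared as a spread. Values without RUNX1 replicate 3 are given beside the fold changes of the arms and the main ratios and shares. The erythroid microRNAs miR-451a, miR-144 and hsa-miR-486-5p were present in all samples, with summed levels of 4429 to 5064 in control and 2333 to 3697 with RUNX1, in CPM as defined further on. Of their 4 arms 3 fell and 1 rose. The blood cell arms hsa-miR-142-3p, hsa-miR-142-5p and hsa-miR-223-3p all rose, from 13828 to 15536 CPM in sum in control samples to a range from 37129 to 54040. Of 6 microRNAs typical of liver, neurons, epithelium, mesenchyme or muscle, 4 rose, and their sum went from between 72.1 and 77.4 CPM to between 2029 and 2227 CPM. In the RUNX1 samples hsa-miR-143-3p made up most of it, at 1866 to 2050 CPM. Among those that rose, hsa-miR-205-5p had 0, 9 and 8 reads and hsa-miR-1 0, 1 and 0 reads in the control samples. Both passed the count filter because of the RUNX1 samples. By the thresholds given further on, 28.0% of all tested small RNAs rose and 29.6% fell. hsa-miR-124-3p was at 0 in every sample. The part of these cells or transcripts in the results on the family was not tested. In RNA from whole cultures, fewer cells that make a microRNA and less of it per cell cannot be told apart.

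Upon RUNX1 over-expression the 3p arms of miR-301a and miR-454 rose, the abundant hsa-miR-130b-3p stayed below the thresholds and its passenger hsa-miR-130b-5p fell. CPM are counts scaled per 1e+06 of a library size that edgeR's TMM factors adjust. An entry counted as altered where P was below 0.05 and the log2 fold change reached 0.5 in size. Of the 7 members, 5 had enough counts to be tested, and 2 rose, 1 fell and 2 were not altered. The median of their log2 fold changes was -0.0969, against -0.0639 over all 947 small RNAs and 0.106 over the 598 microRNAs tested. Of all tested small RNAs 28.0% rose and 29.6% fell by the same thresholds, and of the tested microRNAs 33.4% rose and 22.6% fell. The split of all calls moved with the scaling, from 265 that rose and 280 that fell with TMM to 120 and 521 with library size alone and 213 and 345 with TMM on microRNAs alone. Mean TMM factors were 1.28 without and 0.786 with RUNX1. The RUNX1 samples lay above all control samples in 2 members and below them in 2, while this was so for 31.4% and 33.5% of all tested small RNAs. An adjusted p under 0.05 was reached by 58.1% of them and by 3 members. With 5 members tested, nothing is read from these counts about the family as a whole, and the values of the single arms follow.

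**Figure D1:**
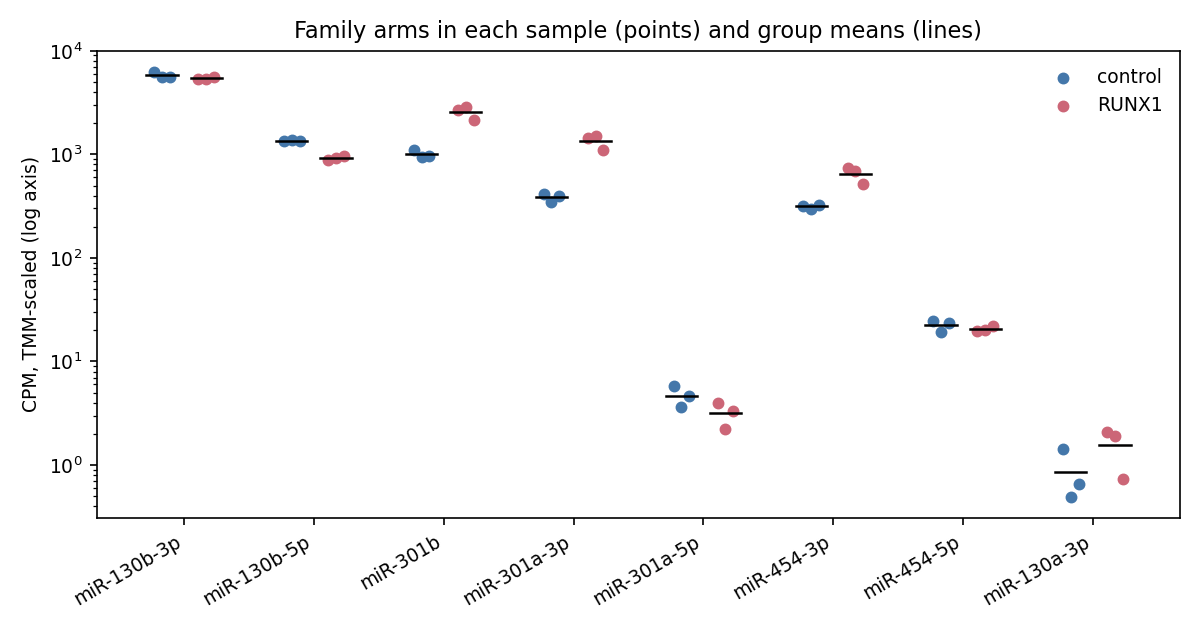
CPM of the family arms (log axis) in each of the 3 control and 3 RUNX1 samples (points), with group means as lines. hsa-miR-301b, hsa-miR-301a-3p and hsa-miR-454-3p lie higher in all RUNX1 samples, hsa-miR-130b-3p stays between 5302 and 6239 CPM, and hsa-miR-130a-3p is the lowest, at 0.496 to 2.08 CPM. The entry hsa-miR-130a-5p, with no counts, is not drawn.

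hsa-miR-301a-3p, one of the SKA2 intron microRNAs, showed the largest rise among the tested members. In control replicates 1 to 3 it was found at 415, 350 and 399 CPM, and in RUNX1 replicates 1 to 3 at 1431, 1498 and 1092 CPM. Even the lowest RUNX1 sample, replicate 3, was well above the highest control sample. The log2 fold change came to 1.79 (3.46-fold, standard error 0.157, adjusted p = 1.74e-05 by edgeR's quasi-likelihood test). Without RUNX1 replicate 3 it was 2.005, and with library size alone it was 1.08. Behind these levels stand 867, 2821 and 3033 reads without and 16494, 9361 and 7480 reads with RUNX1.

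hsa-miR-454-3p, from the next intron microRNA of SKA2, rose less. Its levels were 319, 300 and 323 CPM without and 736, 691 and 518 CPM with RUNX1, again with no overlap and with RUNX1 replicate 3 the lowest of the RUNX1 samples. This gave a log2 fold change of 1.05 (standard error 0.156, 2.07-fold, adjusted p = 0.000401 by the edgeR test) and of 1.27 without RUNX1 replicate 3. With scaling to library size alone the value was 0.333, short of the fold change threshold. The ratio of 2 arms within a sample does not depend on the scaling. The log2 ratio of hsa-miR-454-3p to hsa-miR-301a-3p counts was -0.302 ± 0.0770 without and -1.05 ± 0.0823 with RUNX1 (SD, n = 3 per group), with no overlap. The ratio thus fell by 0.748 on the log2 scale, more than the SD of either group, and by 0.735 without RUNX1 replicate 3. An exact two-sided permutation test of the difference of means gave p = 0.1, below which no comparison of 3 with 3 samples can go.

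The passenger arm hsa-miR-454-5p was not altered with TMM factors. It was measured at 24.9, 19.2 and 23.7 CPM without and at 19.8, 19.998 and 22.2 CPM with RUNX1, and the groups overlapped. The log2 fold change was -0.116, with a 95% interval from -0.487 to 0.256 (adjusted p = 0.568, edgeR), and it was -0.0644 without RUNX1 replicate 3. With library size alone the value was -0.809, past the thresholds as a fall. Both arms come from the hairpin printed above, and their ratio changed. The log2 ratio of hsa-miR-454-3p to hsa-miR-454-5p was 3.80 ± 0.147 without and 4.95 ± 0.362 with RUNX1 (SD, n = 3 per group), a difference of 1.16 with no overlap (exact permutation test, p = 0.1) and of 1.36 without RUNX1 replicate 3.

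hsa-miR-130b-3p was the most abundant member in every sample. Control samples held 6239, 5565 and 5546 CPM and RUNX1 samples 5388, 5302 and 5533 CPM. All RUNX1 samples lay below all control samples, but the highest of the former and the lowest of the latter differed by less than the spread within either group. The log2 fold change was -0.0969, with a 95% interval from -0.350 to 0.156 (adjusted p = 0.479, edgeR), which does not reach the threshold in either direction. The direction of so small a value depended on the processing, and without a filter on low counts it was 0.000318. Without RUNX1 replicate 3 it was -0.0272, and with TMM on microRNAs alone -0.287. Scaling to library size alone gave -0.796, past the thresholds as a fall, and in that scaling the median of all tested small RNAs was -0.762.

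hsa-miR-130b-5p, the passenger arm of the same hairpin, was the only tested member that fell. It went from 1331, 1390 and 1334 CPM to 877, 926 and 965 CPM upon RUNX1 over-expression, so that the groups were well separated. The log2 fold change came to -0.551 (standard error 0.113, adjusted p = 0.00256 by the edgeR test), just past the threshold of 0.5. It was -0.499 without RUNX1 replicate 3, -0.492 without RUNX1 replicate 1, -0.475 with DESeq2 or with RLE factors and -0.461 without a count filter, values that the fold change threshold leaves out although each unadjusted P-value was under 0.05. It was larger in size with TMM on microRNAs alone, at -0.741, and with library size alone, at -1.25. The log2 ratio of hsa-miR-130b-3p to hsa-miR-130b-5p, which needs no scaling, was 2.09 ± 0.119 without and 2.55 ± 0.0579 with RUNX1 (SD, n = 3 per group), a difference of 0.456 with no overlap (exact permutation test, p = 0.1) and of 0.473 without RUNX1 replicate 3.

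**Figure D2:**
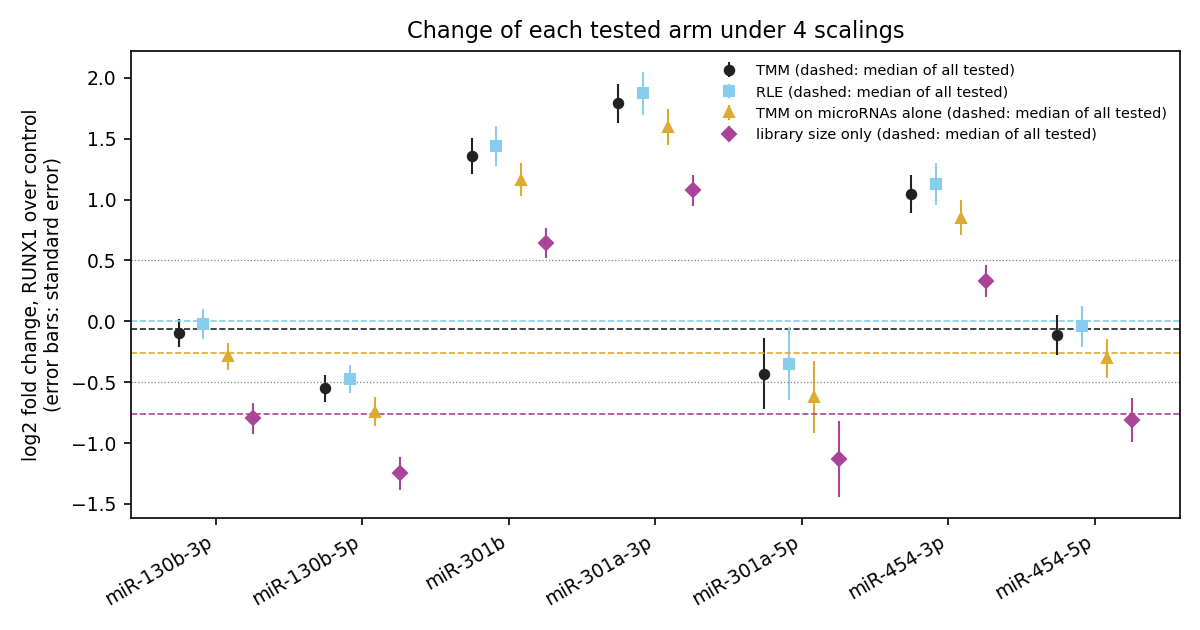
Log2 fold change of RUNX1 over control with its standard error for each tested arm under 4 scalings, with the fold change thresholds of 0.5 as dotted lines and the median of all tested small RNAs in each scaling as a dashed line. Scaling to library size alone moves the arms and the median down together, from -0.0639 to -0.762 for the median, and the order of the arms is the same in these 2 scalings.

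miR-130a was barely present. For hsa-miR-130a-3p 3, 4 and 5 reads were counted without and 24, 12 and 5 with RUNX1. These were 1.43, 0.496 and 0.658 CPM against 2.08, 1.92 and 0.730 CPM. The groups overlapped, since RUNX1 replicate 3 lay below control replicate 1, and the entry did not pass the filter on low counts. A fit without the filter gave 1.27 on the log2 scale, with a standard error of 0.554 and an adjusted p of 0.0992 (edgeR). It passed the filter when control replicate 1, 2 or 3 was left out, with log2 fold changes of 1.497, 0.900 and 1.16 and adjusted p-values of 0.0656, 0.304 and 0.206 (edgeR). By the unadjusted P-value it was altered in the fit without a filter and in that without control replicate 1, and not in those without control replicate 2 or 3. With a control sample left out, the filter asks for enough counts in 2 samples rather than 3. RUNX1 replicates 1 and 2, which had the most reads of this entry, then met it. The values of these 3 fits thus depend on those high counts and are not read as a rise. hsa-miR-130a-5p had no read in any sample. A count of 0 allows a share of up to 3 counts, which is 2.15e-05% of the control and 9.47e-06% of the RUNX1 counts over each group and covers counting error only. At this depth a change of miR-130a was neither shown nor left out.

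Outside the 7 entries, the chromosome 22 neighbour of miR-130b with the same seed, hsa-miR-301b, rose as well. The 3 control samples had 1095, 937 and 961 CPM and the 3 RUNX1 samples 2663, 2859 and 2139 CPM. No RUNX1 sample came near the control range. On the log2 scale it rose by 1.36 (adjusted p = 5.47e-05 by the edgeR test, standard error 0.146), by 1.56 without RUNX1 replicate 3 and by 0.643 with library size alone. Set against hsa-miR-130b-3p, whose hairpin lies 245 bases away, the log2 ratio was -2.54 ± 0.0311 without and -1.09 ± 0.249 with RUNX1 (SD, n = 3 per group). The ratio thus rose by 1.44 on the log2 scale with no overlap (exact permutation test, p = 0.1), and by 1.58 without RUNX1 replicate 3. It was chosen after the counts were seen. hsa-miR-301b also rose less than its near-identical relative hsa-miR-301a-3p, with log2 ratios to it of 1.36 ± 0.0835 without and 0.933 ± 0.0370 with RUNX1 (SD, n = 3 per group). This ratio too was chosen after the counts were seen, and the uncertainty in telling the 2 arms apart applies to it. hsa-miR-301a-5p, the passenger arm of the MIR301A hairpin, had 76 reads over the control and 83 over the RUNX1 samples and was not altered with TMM factors (log2 fold change -0.429, 95% interval from -1.10 to 0.239). The value rests on few reads. It ranged from -0.191 without RUNX1 replicate 2 to -0.622 without control replicate 2, was -0.298 without RUNX1 replicate 3 and passed the thresholds as a fall with library size alone, at -1.13.

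In all 3 hairpins with reads from both arms the 3p arm gained on the 5p arm. Such ratios were not formed for hairpins outside the family, so this gain is not shown to be particular to it. Beside the ratios of miR-454 and miR-130b given above, the log2 ratio of hsa-miR-301a-3p to hsa-miR-301a-5p went from 6.37 ± 0.235 to 8.71 ± 0.550 upon RUNX1 over-expression (SD, n = 3 per group), the widest shift of the 3 at 2.34 and the one resting on the fewest passenger reads. Without RUNX1 replicate 3 it was 2.53. This last ratio was added after the counts were seen. Of the 9 ratios planned, that of the miR-130a arms could not be formed for lack of 5p reads. The other 8 were compared, and 6 did not overlap between the groups. The ratios share arms with one another and are not separate results. Of all tested small RNAs 31.4% lay higher and 33.5% lower in every RUNX1 sample, so the number of ratios without overlap is not read as a result. One of the 6, hsa-miR-301a-3p to hsa-miR-130a-3p, rests on the 3 to 24 reads of the latter. Its difference of 1.00004 ranged from 0.585 without control replicate 1 to 1.25 without control replicate 2, was 0.687 without RUNX1 replicate 3, and with a pseudocount of 0.1 its groups overlapped. The adjusted p of the 6 was 0.133 (exact permutation test, Benjamini-Hochberg over 8 ratios), and no p-value here could fall under 0.1 with 3 samples against 3. The ratios of hsa-miR-130b-3p and of hsa-miR-454-3p to hsa-miR-130a-3p overlapped, in the latter with a difference of 0.252 (exact permutation test, p = 0.8) that was -0.0474 without RUNX1 replicate 3.

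**Figure D3:**
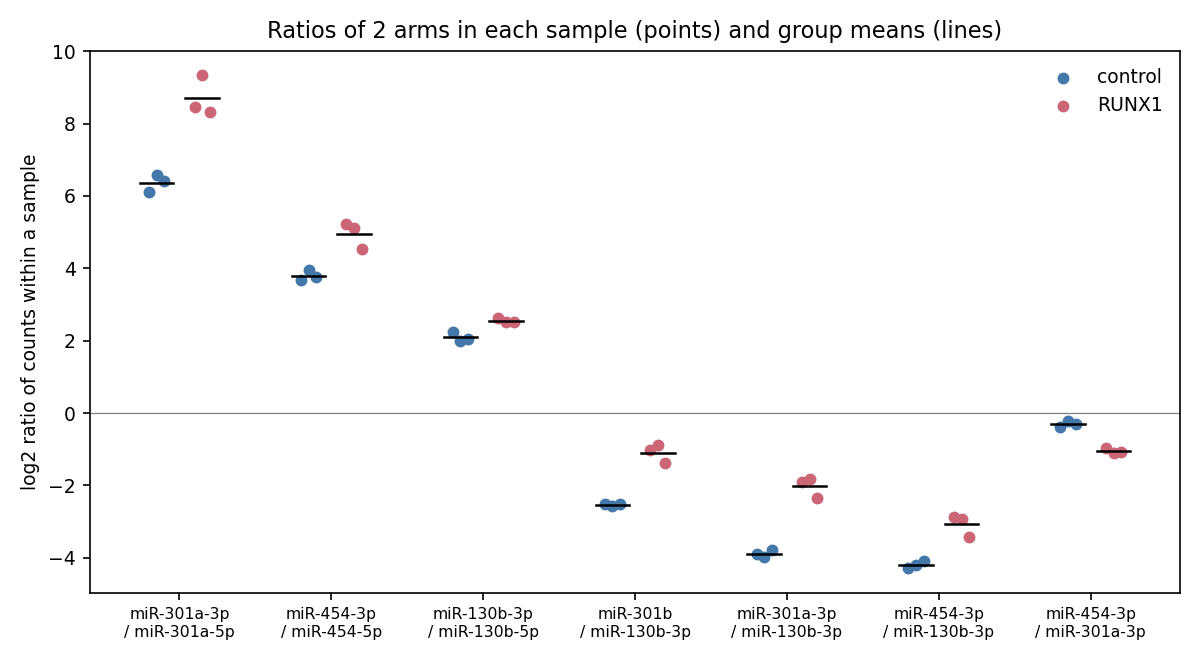
Log2 ratio of the counts of 2 arms within each of the 3 control and 3 RUNX1 samples (points), with group means as lines. The 3 ratios on the left set a 3p arm over its own 5p arm and are higher in all RUNX1 samples. The next 3 set an arm with the family seed over hsa-miR-130b-3p and are also higher, and the last, hsa-miR-454-3p over hsa-miR-301a-3p, is lower.

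With these unequal changes the makeup of the family shifted. Of the summed counts of the 4 3p arms among the members, hsa-miR-130b-3p took 89.5%, 89.5% and 88.5% without and 71.3%, 70.8% and 77.5% with RUNX1. It remained the leading arm in every sample, and its mean part fell by 15.98 percentage points (exact permutation test, p = 0.1), or by 18.1 without RUNX1 replicate 3. The part of hsa-miR-301a-3p grew from 5.98% ± 0.371 to 18.1% ± 2.47 and that of hsa-miR-454-3p from 4.85% ± 0.293 to 8.74% ± 1.31 (SD, n = 3 per group), with no overlap for either. With hsa-miR-301b counted in, hsa-miR-130b-3p went from 77.3% ± 0.555 to 54.5% ± 4.47 and hsa-miR-301b from 13.3% ± 0.239 to 25.6% ± 2.32 (SD, n = 3 per group). RUNX1 replicate 3 was the one closest to the control samples in each of these.

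**Figure D4:**
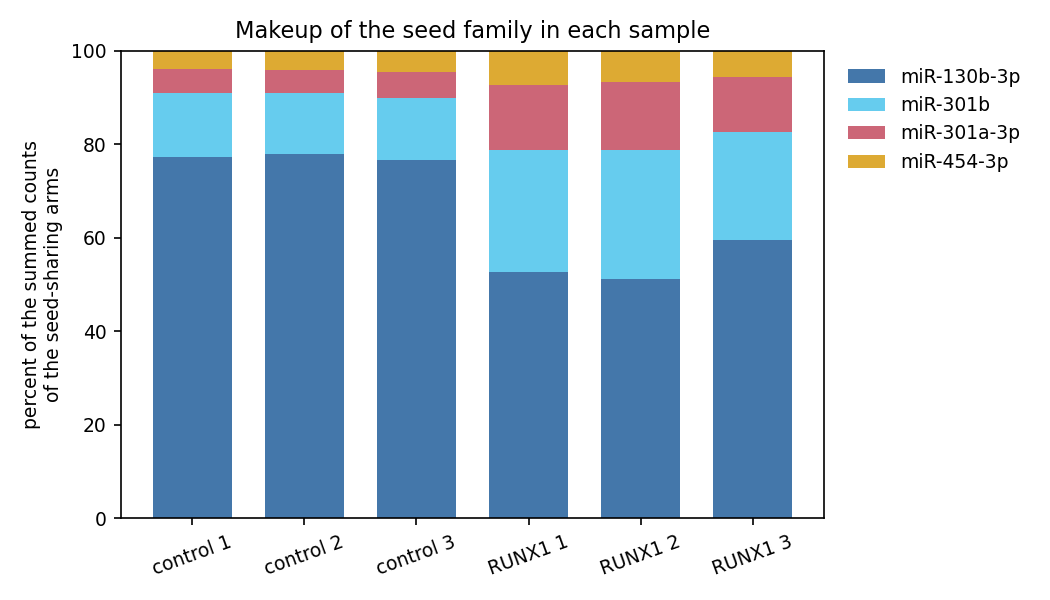
Percent of the summed counts of the seed-sharing arms that each arm takes, in each sample, with hsa-miR-301b included. hsa-miR-130b-3p takes 76.7% to 77.8% in the control samples and 51.2% to 59.6% in the RUNX1 samples. The part of hsa-miR-130a-3p, at most 0.0204%, is too thin to be seen.

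The summed part of the 4 member 3p arms in all microRNA counts was smaller with RUNX1, although hsa-miR-301a-3p and hsa-miR-454-3p rose in CPM. Their sum in CPM went the other way and was higher with RUNX1, so the direction of the total depends on the scaling. Mean levels went from 5783 to 5408 CPM for hsa-miR-130b-3p, from 388 to 1340 for hsa-miR-301a-3p and from 314 to 648 for hsa-miR-454-3p. The 4 member arms together made up 1.10%, 1.0004% and 0.937% of the microRNA counts without and 0.622%, 0.603% and 0.691% with RUNX1, a difference of -0.373 percentage points with no overlap (exact permutation test, p = 0.1) and of -0.399 without RUNX1 replicate 3. The total moved with hsa-miR-10a-5p, which went from 49767 ± 6589 CPM to 353428 ± 61273 CPM (SD, n = 3 per group). With hsa-miR-10a-5p left out of the total, the 4 arms made up 1.10% ± 0.0797 without and 0.914% ± 0.0332 with RUNX1 (SD, n = 3 per group), a difference of -0.182 percentage points, again with no overlap. None of these sums holds hsa-miR-301b, which has the same seed and rose. With hsa-miR-301b added, the arms took 1.17% ± 0.0962 of all microRNA counts without and 0.857% ± 0.0350 with RUNX1 (SD, n = 3 per group). The difference was -0.310 percentage points with no overlap. With hsa-miR-10a-5p also left out of the total, the shares of that wider sum overlapped between the groups. In CPM the wider sum was higher with RUNX1, and hsa-miR-301b alone went from a mean of 998 to 2554 CPM. A fall of the whole seed family is therefore not shown. The part of hsa-miR-301a-3p alone grew from 0.0604% ± 0.00452 to 0.115% ± 0.00798 of all microRNA counts (SD, n = 3 per group), and that of hsa-miR-454-3p overlapped between the groups.

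A seed shifted by a base is found in hsa-miR-148a-3p, hsa-miR-148b-3p and hsa-miR-152-3p, whose bases 2 to 8 are bases 1 to 7 of hsa-miR-130b-3p. The sequence of the most abundant of them shows the shift.

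hsa-miR-148a-3p: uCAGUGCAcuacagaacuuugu

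Of these 3, 2 rose. hsa-miR-148a-3p, at 10092 ± 908 CPM without and 37664 ± 3897 CPM with RUNX1 (SD, n = 3 per group), was more abundant than hsa-miR-130b-3p in both conditions, and its log2 fold change was 1.90 (standard error 0.132). hsa-miR-148b-3p rose by 1.15 on the same scale. hsa-miR-152-3p, with 0.383, stayed below the fold change threshold, and without RUNX1 replicate 3 it passed as a rise, at 0.577.

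Of 6 microRNAs known, like miR-130a, for a fall during megakaryocytic differentiation, 2 rose with RUNX1 in K562 cells, 1 fell and 3 were not altered. Of all tested microRNAs 33.4% rose and 22.6% fell, so nothing is read from these counts about the list. hsa-miR-10a-5p and hsa-miR-10b-5p rose, the former by 2.83 (standard error 0.169) and the latter by 1.94 (standard error 0.201) on the log2 scale. hsa-miR-126-3p, from an intron of EGFL7, fell by 1.32 (standard error 0.389) on the log2 scale. Its RUNX1 samples were uneven, with 1804, 2080 and 5809 CPM in replicates 1 to 3 against a control mean of 8040 CPM, and without RUNX1 replicate 3 it fell by 1.97. In the same fit of all samples hsa-miR-17-5p, hsa-miR-20a-5p and hsa-miR-106a-5p had -0.368, -0.260 and 0.422.

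The microRNAs outside the family whose log2 CPM ran most closely with a member over the 6 samples were found among 591 candidates. For hsa-miR-130a-3p these were hsa-miR-503-5p, hsa-miR-497-5p and hsa-miR-362-3p, with Pearson r of 0.959, 0.949 and 0.937, and for hsa-miR-130b-3p they were hsa-miR-4638-3p, hsa-miR-933 and hsa-miR-1294, with 0.963, 0.909 and 0.903. The points are 6 libraries that share scaling factors and fall into 2 conditions, hsa-miR-130a-3p rests on 3 to 24 counts, and the values describe these libraries only.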

How the data were processed

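Small RNA of transduced K562 cells was sequenced from 3 control and 3 RUNX1 samples, mapped to their conditions by the sample titles. The authors prepared TruSeq Small RNA libraries from 1000 ng of total RNA, sequenced them as single reads on a HiSeq2000, demultiplexed the reads with CASAVA 1.8.2 and used the OASIS platform. The deposited values are whole-number counts per annotated small RNA without normalization. The submitters' processing notes name hg19. The aligner and the treatment of reads with several matches are not given in the sources used here. The 5 summary entries of each file were all at 0 and were left out. Total counts ranged from 1618248 to 15245007. Library names carry one letter for the control and another for the RUNX1 samples, so that a preparation, if the letters mark one, and the condition cannot be told apart, and the name of the first RUNX1 library bears the number of the second.

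All 28846 entries were filtered with filterByExpr (minimum count 10, minimum total count 15), given TMM factors and compared by glmQLFTest after glmQLFit in edgeR 4.0.16 (limma 3.58.1, R 4.3.3), with the condition as the only term. Thresholds of P below 0.05 and a log2 fold change of 0.5 are those of the study. Adjusted p-values are Benjamini-Hochberg over the 947 tested entries, and standard errors are the log2 fold change over the root of F. Ratios of counts within a sample used a pseudocount of 0.5, with exact two-sided permutation tests. The fit was also run on simulated data with a single dispersion and balanced changes. These differ from the data here and do not test their scaling, so no result rests on that run. Alternatives were DESeq2 1.42.0, RLE factors, library size only, TMM on microRNAs alone, 2 other count filters, stricter thresholds, the replicate number as a block, each sample left out, and other denominators or pseudocounts. Replicate samples differed by more than sampling noise and each counted once. Named entries are the members, the other entries of the family, the 3 microRNAs most like each of 2 members in log2 CPM (prior count 2), and those of fixed lists of related, megakaryocyte-linked and cell type microRNAs. Members and lists were chosen with earlier results of these data known. The limits for a count of 0 cover counting error only, while the 95% intervals of log2 fold changes are from the edgeR fit.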

Additional observations from a re-analysis of the deposited data

How the results depend on the processing

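Every count of altered small RNAs under the alternatives was within 1.5 times the 545 reported, from 364 with an adjusted p under 0.05 and a log2 fold change of 1 to 761 without a count filter, and from 521 to 612 with a sample left out. With the replicate number as a block 546 small RNAs and 3 members were altered, and no call of a member changed. The numbers pair the samples by name only: deviations from the group means correlated by -0.0327, -0.0904 and 0.0178 for equal numbers. Altered members numbered 2 to 4 in all settings. Scaling to library size alone gave 1 member that rose and 3 that fell, with 120 small RNAs that rose and 521 that fell against 265 and 280 in the main scaling. TMM on microRNAs alone gave 213 and 345. Of the log2 fold changes 81 kept their call, 6 lost it and 3 gained it. miR-130b-3p reversed without a count filter, at 0.000318. With a sample left out the rise of miR-301a-3p ranged from 1.71 to 2.005, of miR-454-3p from 0.9746 to 1.27 and of miR-301b from 1.31 to 1.56. The difference in the log2 ratio of miR-454-3p to miR-130a-3p ranged from -0.201 without control replicate 1 to 0.546 and was -0.0474 without RUNX1 replicate 3, while all other shares and ratios kept their direction. Depth limits miR-130a, and the few counts of miR-301a-5p limit its ratio. The causes of these shifts were not tested.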
